A study of Mus musculus with 4 samples.

Results

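Solute carriers (Slc genes) with signal above background were examined in sorted immature granulocytes of mouse bone marrow, in wild type (WT) against miR-223 KO. Members were chosen by their measured detection: every gene whose name starts with Slc and a number and that had at least 1 probe flagged well above background on all 4 arrays, which held for 202 of 333 such genes. The 5 names tied to iron and red cells (Slc4a1, Slc11a1, Slc11a2, Slc40a1 and Slc25a37) were left out of the 338 Slc names on the array, and the fit covered 16978 genes. Detection was required in both genotypes alike, so it fixed no direction between them, but a gene lit in 1 genotype alone is outside the members. The 202 members came from 42 families, grouped here by the family's usual substrate into 15 classes. Of the members, 4 names are not carriers themselves (the scaffold proteins Slc9a3r1 and Slc9a3r2, and Slc7a6os and Slc4a1ap, which are named after a neighbouring or binding partner), and leaving them out kept the median difference at 0.04.

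RNA of 2 WT and 2 miR-223 KO samples, all from male C57BL/6 mice with no age in the labels, was hybridised 1 sample per array in a single colour (Cy3). The KO cells carry a deletion of the microRNA miR-223 and the WT cells do not; no other allele or treatment is given, and the labels do not say whether a sample was 1 mouse or a pool. Nor do they say that replicates were separate animals. The p-values therefore reflect how far these 4 samples scatter, possibly for technical reasons, and 2 arrays a genotype limit every precision given here. No probe carried the gene of miR-223, so the genotype labels could not be checked on the targeted gene.

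Solute carriers are membrane proteins that move small molecules across the plasma membrane or organelle membranes, either down a gradient or coupled to sodium, protons or an exchanged solute. They supply a maturing granulocyte with sugars, amino acids, nucleosides, vitamins and metals, and mitochondrial members connect the cytosol with the respiratory chain. miR-223 is a microRNA abundant in the myeloid lineage, and a microRNA lowers its targets by pairing its seed with sites in the messenger RNA.

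The mature miR-223-3p is shown with its seed (bases 2 to 8) in capitals, because the member probes were searched for its complement. The sequence and its place, chrX:96242884-96242905 on the plus strand, are from RefSeq on GRCm38.p6. Below it stand stretches of the 4 member probes that hold ACTGAC, written 5′ to 3′ in the sense of the transcript as deposited, with the match in capitals.
mmu-miR-223-3p: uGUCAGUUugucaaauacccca
Slc29a1: aatggcctctgACTGACAgctccgactgat
Slc39a1: aaagtaggtACTGACAccagacactacaga
Slc27a4: acccgggctgagACTGACggcacctttagg
Slc38a10: agccagatttcACTGACtccataaggtggg
Per the files' annotation on mm9 these probes lie at chr17:45722368-45722427, chr3:90057295-90057354, chr2:29672404-29672464 and chr11:119965895-119965954. Which exon or untranslated region they fall in was not analysed here. Only the sense strand was searched, in 60-base probes of which 321 belonged to members. AACTGACA, which pairs with the seed and has the A opposite base 1, was in 0 member probes and in 0.132% of all 25749 probes. AACTGAC was in 0 member probes against 0.384% of all, and ACTGACA in 2 member probes, 0.623% against 0.478%. ACTGAC, which the longer strings contain, was in 4 member probes, 1.25% against 1.47%. A match is a description of these letters only, and most of each transcript lies outside its probes. The members with a match went both ways: their log2 differences, KO minus WT, were 1.21 for Slc29a1, 0.84 for Slc39a1, 0.08 for Slc38a10 and -1.08 for the fainter Slc27a4 probe that holds the match.

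Most solute carriers differed little between the genotypes, and a small number in each direction differed by more. Slc23a2 (ascorbate), Slc29a1 (nucleosides) and Slc2a6 (a hexose carrier of internal membranes) were higher in KO by more than 1 on the log2 scale, and Slc27a4 (fatty acids) was lower by more than 1. No member passed an adjusted p of 0.05 in limma, where 0% of the 16978 genes did and the smallest adjusted p of all genes was 0.0838. At an unadjusted p under 0.05 there were 54 members. Of these 31 were higher in KO, 15.3% of members against 11.8% of all genes, and 23 lower, 11.4% against 12%. In limma with an intensity trend, which lets the expected spread depend on signal and stands as an alternative, 15 members were called higher, 7.43% against 5.45% of all genes, and 10 lower, 4.95% against 4.13%. Both KO arrays lay above both WT arrays in 74 members, 36.6% against 28% of all genes, and below both in 48 members, 23.8% against 30.5%. Shares on the lower side were thus near or under the background and those on the higher side a few points above it. The split moved with the scaling: the authors' deposited values gave 34 higher and 11 lower members at an unadjusted p under 0.05. With those values the median of all genes also lay higher, as the closing section shows. Shares of all genes are not given for them, so this split is not read as particular to the members. Counts in the classes and gene lists below are to be read beside the shares of all genes in the first scaling.

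The median difference, KO minus WT, was 0.04 over the 202 members and -0.02 over all genes tested. Differences ranged from -1.11 to 1.58, with 112 members above 0 and 90 below. The median size of a difference was 0.186 in members and 0.199 in all genes. It was 0.188 in the 15621 genes that, like the members, had a probe well above background on all 4 arrays. Of those genes 60.3% had separate groups and 10.3% were called with the trend, against 60.4% and 12.4% of members. In members the 2 arrays of a genotype differed by a median of 0.121 (WT) or 0.114 (KO). A 2-fold difference was reached by 5 of 202 members, beside 424 of all 16978 genes tested. Among the 15621 genes with a probe well above background on all 4 arrays it was reached by 237. The 5 were Slc23a2, Slc29a1, Slc2a6, Slc27a4 and Slc9a9, of which the last rests on 1 array. When each array was left out in turn, 145 of 202 members kept their direction throughout. In this text a level is a log2 signal from which the array's 75th percentile was subtracted, a difference is KO minus WT of such levels with its standard error in limma, and levels of different genes cannot be compared because probes differ in brightness. Sets of 2 against 2 allow no exact test across arrays to reach 0.05. Members given by array below were mostly picked by a small p, so separate groups among them were favoured by that choice. Over all genes tested the groups were apart in 58.6%. With normexp background correction fitted on all spots, 18 of the 46 members given by array turned sign, named in the closing section, among them Slc12a4, Slc26a11, Slc25a33, Slc25a28, Slc39a8, Slc44a4, Slc22a15 and Slc17a9.

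**Figure D1:**
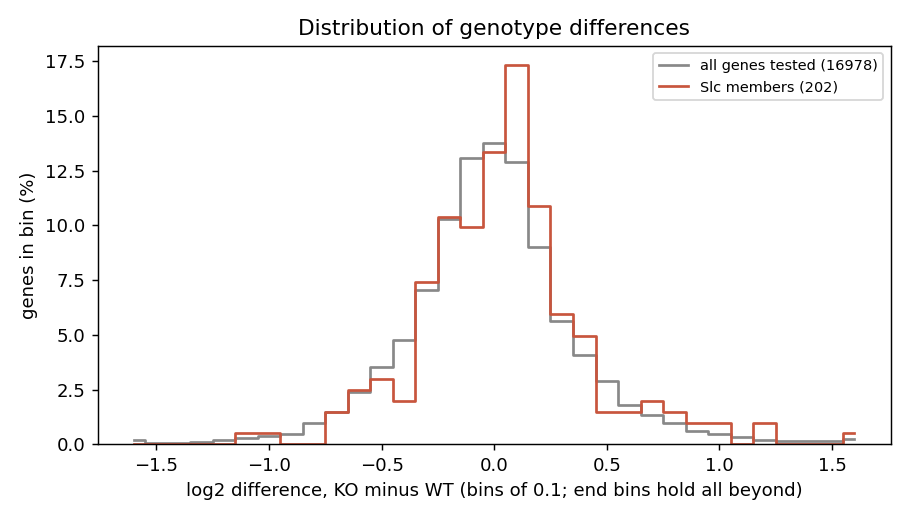
Histogram lines of the log2 difference, KO minus WT, in bins of 0.1, as percent of the 202 Slc members (red) and of the 16978 genes tested (grey). Both lines peak near 0, with medians of 0.04 and -0.02.

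The class medians stayed close to 0 for most substrates, 10 of 15 lying above the median of all genes and 5 below. Monocarboxylates had the highest class median, 0.18, and phosphate, with 3 members, the lowest, -0.45. The 25 members called with an intensity trend were spread over 13 classes, and every class with 10 or more members held differences on both sides of 0.

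**Figure D2:**
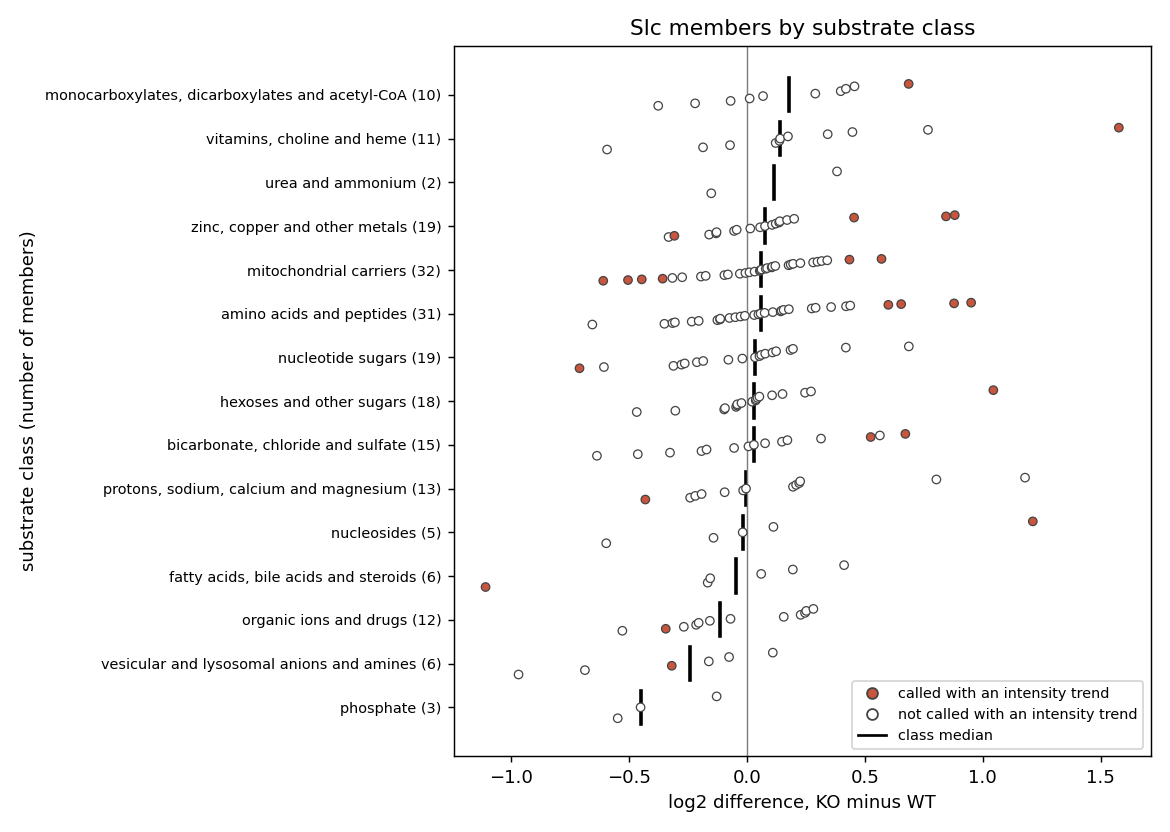
Log2 difference, KO minus WT, of each of the 202 members (points), arranged by substrate class with the number of members in brackets; black bars are class medians and red points were called in limma with an intensity trend (15 higher, 10 lower). Every class with 10 or more members spans 0.

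**Figure D3:**
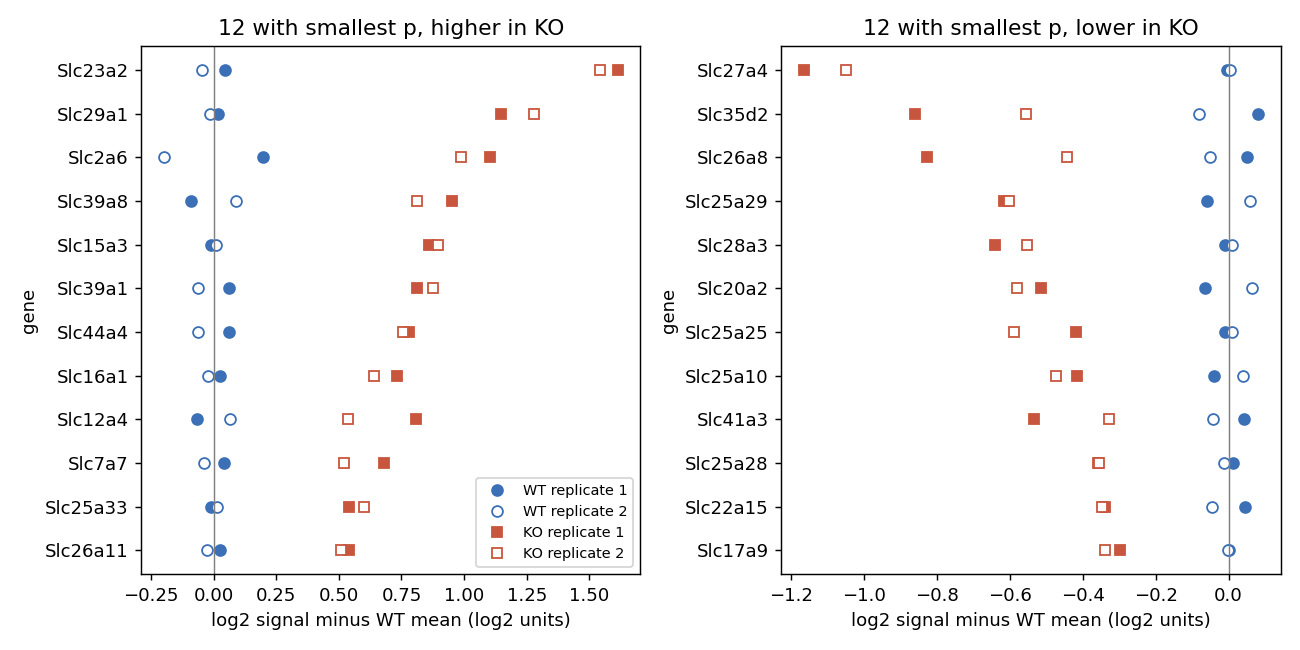
Level on each array minus the WT mean (log2 units) for the 12 members with the smallest p in each direction among those whose KO arrays lie on one side of both WT arrays; circles are WT, squares KO, filled symbols replicate 1 and open symbols replicate 2. Slc23a2 lies furthest to the right and Slc27a4 furthest to the left, and 8 of the 24 (Slc39a8, Slc44a4, Slc12a4, Slc25a33, Slc26a11, Slc25a28, Slc22a15 and Slc17a9) turned sign with normexp fitted on all spots.

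Vitamin, choline and heme carriers held the member with the greatest difference of all. Slc23a2, the sodium-coupled importer that takes ascorbate into cells, read -3.24 and -3.33 on the WT arrays and -1.67 and -1.74 on the KO arrays, a difference of 1.58 ± 0.09 or 2.98-fold (limma adjusted p = 0.0838; 0.00626 with an intensity trend; probe at chr2:131878512-131878571). Its KO arrays were far above its WT arrays, and it was the member called with the authors' deposited values (limma adjusted p = 0.0467). With normexp fitted on all spots its difference was 0.0066, and with normexp fitted without control spots 0.70. Slc44a4, of the choline transporter family, was dim and read -5.03 and -5.15 on the WT arrays and -4.31 and -4.33 on the KO arrays, a difference of 0.77 ± 0.09. Slc23a3, a relative of the ascorbate importers, went the other way at -0.97 and -1.22 on the WT arrays and -1.51 and -1.85 on the KO arrays (-0.59 ± 0.17). In none of these 3 did the groups overlap, but Slc44a4 turned to -0.08 with normexp fitted without control spots. The folate importer Slc46a1 differed by 0.45 ± 0.15, and Slc23a1, the other ascorbate importer, by -0.07 ± 0.16. Over the 11 members the median was 0.14, with 3 higher and 1 lower at an unadjusted p under 0.05 and 1 higher with the trend.

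Nucleoside carriers held 1 of the largest differences, in Slc29a1. Slc29a1, the equilibrative carrier that lets nucleosides cross the plasma membrane in both directions, read 0.30 and 0.26 on the WT arrays and 1.43 and 1.56 on the KO arrays and differed by 1.21 ± 0.09, or 2.32-fold (limma adjusted p = 0.0838; 0.00356 with an intensity trend). The sodium-driven concentrative carrier Slc28a3 was lower in KO, reading -3.98 and -3.96 on the WT arrays and -4.61 and -4.52 on the KO arrays (-0.60 ± 0.08). Slc29a2, the second equilibrative carrier of the plasma membrane, gave -3.36 and -3.23 on the WT arrays and -3.41 and -3.47 on the KO arrays (-0.14 ± 0.09). All 3 had separate groups, by a wide gap in the first and a narrow one in the last. The lysosomal Slc29a3 (0.11) and the concentrative Slc28a2 (-0.02) were near 0. With 5 members the class median was -0.02, and 1 member was called with the trend.

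Hexose carriers showed little movement apart from 1 gene. Slc2a6, a glucose transporter relative of internal membranes, read -0.67 and -1.07 on the WT arrays and 0.23 and 0.12 on the KO arrays, a difference of 1.05 ± 0.17 (limma adjusted p = 0.0962; 0.0152 with an intensity trend; probe at chr2:26877148-26877207). Slc2a8, another intracellular hexose carrier, read -2.57 and -2.41 on the WT arrays and -2.19 and -2.30 on the KO arrays (0.25 ± 0.10). Slc5a6 carries the vitamins biotin and pantothenate although its family is one of sodium-glucose carriers, and gave -1.12 and -0.99 on the WT arrays and -0.67 and -0.89 on the KO arrays (0.27 ± 0.12). The KO arrays of all 3 lay above both WT arrays, with the widest gap in Slc2a6. The main glucose importers differed less: Slc2a1 by 0.11 ± 0.20 with overlapping arrays, and Slc2a3 by -0.10 ± 0.10, with 0.11 on its second probe. The class of 18 had a median of 0.03 with 1 member higher and 0 lower at an unadjusted p under 0.05. Slc2a9 is left aside because its probes disagreed. Of 14 glycolysis enzymes downstream of glucose uptake, 0 were called with the trend and 1 was lower at an unadjusted p under 0.05. The values nearest to a call were -0.23 for Hk1, a hexokinase that traps glucose, 0.18 for Pgam1, 0.13 for Hk3, another hexokinase, and 0.09 for Gapdh.

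Amino acid and peptide carriers formed one of the fullest classes, with 31 members (Slc7a6os counted), a median of 0.06, and 4 members called higher and 0 lower with the trend. Slc15a3, which exports peptides and histidine from lysosomes, read -1.76 and -1.74 on the WT arrays and -0.89 and -0.86 on the KO arrays, a difference of 0.88 ± 0.08 (limma adjusted p = 0.0838; 0.0106 with an intensity trend; probe at chr19:10931798-10932148). Its relative Slc15a4, with the same function in endolysosomes, read 3.02 and 2.91 on the WT arrays and 3.75 and 3.49 on the KO arrays (0.65 ± 0.13). Slc7a7, the light chain of an exporter of arginine and lysine, read 2.14 and 2.06 on the WT arrays and 2.78 and 2.62 on the KO arrays (0.60 ± 0.10). KO arrays were above both WT arrays in each of them, and with normexp fitted on all spots Slc15a3 was at 0.15. Slc36a2, a proton-coupled importer of small amino acids, was the fourth called with the trend, at 0.95 ± 0.19, and turned to -0.35 with normexp fitted on all spots. The heavy chain Slc3a2, which Slc7a7 and Slc7a5 need to reach the surface, differed by -0.13 ± 0.14. Its light chain Slc7a5, an importer of large neutral amino acids, differed by 0.29 ± 0.10, and Slc7a11, the cystine importer, by 0.36 ± 0.33 with 1 KO array high. The class had 6 members higher and 2 lower at an unadjusted p under 0.05. The 2 lower were the arginine importer Slc7a1 (-0.35, with -0.10 on its second probe) and the neutral exchanger Slc7a8 (-0.32). Among 14 genes of amino acid sensing and use, 1 was called lower with the trend: Asns, asparagine synthetase, at -0.53 ± 0.08 (limma adjusted p = 0.0109 with an intensity trend). Others with a small p were Gclc, which starts glutathione synthesis (-0.18), and Lamtor1, of the lysosomal amino acid sensor (-0.16).

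Monocarboxylate carriers were higher in KO at the median than any other class. Slc16a1, the proton-coupled carrier of lactate and pyruvate, read 0.79 and 0.74 on the WT arrays and 1.49 and 1.40 on the KO arrays, a difference of 0.69 ± 0.09 (limma adjusted p = 0.0875; 0.00926 with an intensity trend), and its other passing probes gave 0.80 and 0.51. Slc16a7, a carrier of the same substrates, read -0.72 and -1.08 on the WT arrays and -0.38 and -0.51 on the KO arrays (0.46 ± 0.16), and the family member Slc16a13 read -3.25 and -3.45 on the WT arrays and -2.86 and -3.00 on the KO arrays (0.42 ± 0.12). None of the 3 had overlapping groups. Slc16a3, which exports lactate from glycolytic cells, did not share this direction, at -0.22 ± 0.09. The 10 members had 3 higher and 0 lower at an unadjusted p under 0.05. Among 10 measured chaperones and regulators of surface transporters, 3 were higher and 0 lower on that count, against 11.8% and 12% of all genes. With the trend 1 was called higher, against 5.45% of all genes. That one was Emb, embigin, a chaperone of monocarboxylate carriers, at 0.58 ± 0.08 (limma adjusted p = 0.00931 with an intensity trend), and the other chaperone, Bsg (basigin), was at 0.27 ± 0.11. The kinase Oxsr1, which acts on cation-chloride carriers, was at 0.39, and the ubiquitin ligase Nedd4l at 0.30.

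Metal carriers held 3 zinc importers among the called members. Slc39a8, an importer of zinc and manganese, read -2.37 and -2.20 on the WT arrays and -1.33 and -1.47 on the KO arrays, a difference of 0.88 ± 0.11, with 1.08 on its second probe. With normexp fitted on all spots Slc39a8 turned to -0.088. Slc39a1, a zinc importer of the plasma membrane, read 1.94 and 1.82 on the WT arrays and 2.69 and 2.76 on the KO arrays (0.84 ± 0.09; limma adjusted p = 0.0859, 0.00626 with an intensity trend). Slc39a6, a further zinc importer, read 0.72 and 0.85 on the WT arrays and 1.28 and 1.19 on the KO arrays (0.45 ± 0.10). The KO arrays of all 3 were above the WT arrays. Slc39a11, of the same family, was called in the other direction at -0.31 ± 0.08, and turned to 0.17 with normexp fitted on all spots. In the 12 members of the Slc39 family, which bring zinc into the cytosol, the median was 0.13, with 3 called higher and 1 lower with the trend. The 5 members of the Slc30 family, which remove zinc from the cytosol, had a median of 0.06 and 0 calls with the trend; the difference between the families was not tested. The zinc exporter of the plasma membrane, Slc30a1, was at -0.33 ± 0.17, with 0.06 on its second probe. The copper importer Slc31a1 was at -0.13 ± 0.08, with 0.04 on its second probe. Of 7 other genes of zinc and copper handling, 0 were called with the trend. At an unadjusted p under 0.05, 2 were higher, where 11.8% of all genes were. Their largest value was that of the metallothionein Mt2, 0.61 ± 0.17; the copper chaperone Ccs was at 0.30, Atox1 at 0.22 and Mtf1, the zinc-sensing transcription factor, at -0.32.

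Mitochondrial carriers, with 32 members, went in both directions, and the median was 0.06. The 4 called lower with the trend move different solutes. Slc25a29, a carrier of basic amino acids, read 0.75 and 0.87 on the WT arrays and 0.20 and 0.21 on the KO arrays (-0.61 ± 0.09, and -0.59 on a second probe). Slc25a25, which exchanges ATP-magnesium for phosphate, read 1.04 and 1.05 on the WT arrays and 0.63 and 0.46 on the KO arrays (-0.50 ± 0.10). Slc25a10, the dicarboxylate carrier, read 2.06 and 2.14 on the WT arrays and 1.68 and 1.62 on the KO arrays (-0.45 ± 0.08). These 3 had KO arrays below both WT arrays. The iron importer Slc25a28, a relative of the Slc25a37 left out above, read 3.24 and 3.21 on the WT arrays and 2.87 and 2.87 on the KO arrays (-0.36 ± 0.08). In the other direction stood Slc25a33, a carrier of pyrimidine nucleotides, at -2.16 and -2.13 on the WT arrays and -1.60 and -1.54 on the KO arrays (0.57 ± 0.08), and the ADP/ATP exchanger Slc25a4 at 0.43 ± 0.09; both were called higher with the trend. Unlike Slc25a4, the ADP/ATP exchanger Slc25a5 hardly differed, at 0.11 ± 0.09. The phosphate carrier Slc25a3 differed by 0.08 ± 0.08, with 0.02 and -0.28 on its other probes. At an unadjusted p under 0.05 the class had 5 higher and 6 lower. Of 12 partners in mitochondrial import, 0 were called with the trend; Cpt1a, which starts fatty acid import, was at 0.30, the outer-membrane channel Vdac1 at 0.19, the uncoupling protein Ucp2 at 0.18 and the calcium channel Mcu at -0.17.

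Fatty acid and bile acid carriers had 1 call. Slc27a4, which takes up long-chain fatty acids and joins them to coenzyme A, read 2.03 and 2.04 on the WT arrays and 0.87 and 0.98 on the KO arrays, a difference of -1.11 ± 0.09, or 2.16-fold lower in KO (limma adjusted p = 0.0838; 0.00356 with an intensity trend; probe at chr2:29671115-29671174). Its fainter probe gave -1.08, and normexp fitted on all spots gave -0.71. Slc27a3, a related acyl-CoA synthetase, read -2.77 and -2.50 on the WT arrays and -2.09 and -2.36 on the KO arrays (0.41 ± 0.16), and Slc10a7, a distant relative of the bile acid carriers, read -0.73 and -0.70 on the WT arrays and -0.51 and -0.53 on the KO arrays (0.19 ± 0.08). The groups of all 3 were apart, but the probes of Slc10a7 disagreed and their mean gave -0.14. Slc27a1 and Slc27a6 were at -0.17 ± 0.24 and 0.06 ± 0.09. The median of the 6 members was -0.05. Of 4 measured acyl-CoA synthetases of the Acsl family, 1 was called lower with the trend: Acsl1 at -0.41 ± 0.09 (limma adjusted p = 0.023 with an intensity trend). Acsl3 was at 0.40, Acsl4 at 0.23 and Acsl5 at 0.00 to 2 decimals.

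**Figure D4:**
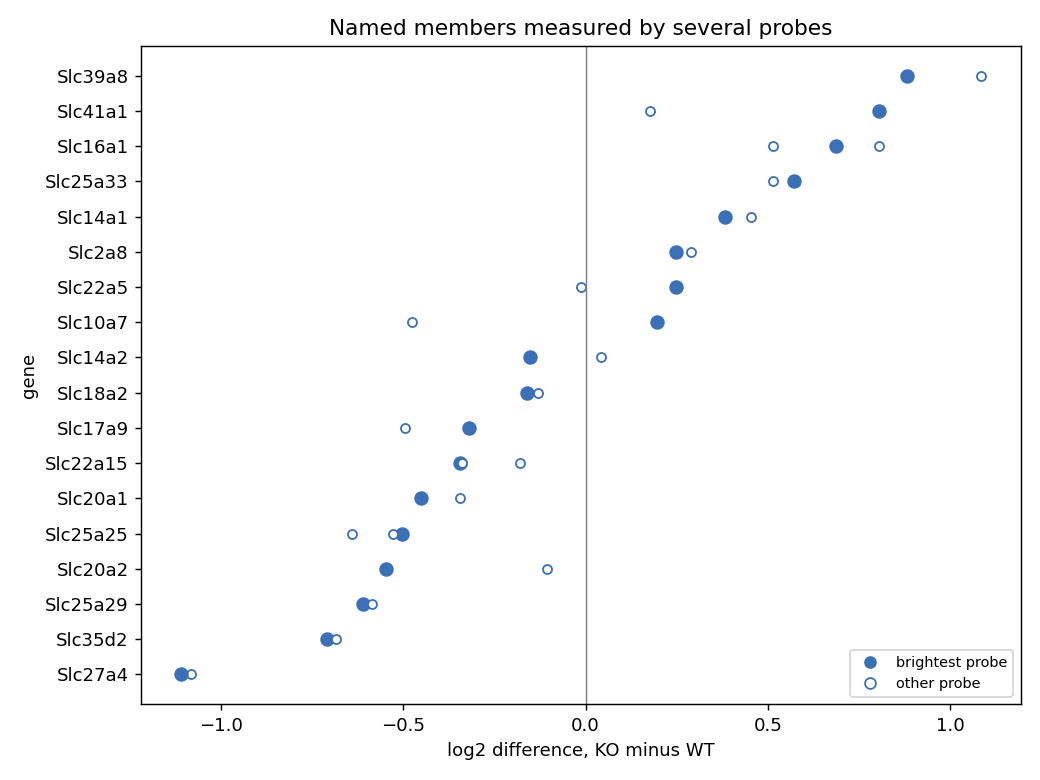
Log2 difference, KO minus WT, of each passing probe for the members given by array that have several; filled points are the brightest probe, used in the fit, and open points the others. The probes of Slc27a4, Slc35d2, Slc25a29, Slc16a1 and Slc39a8 lie on one side of 0, and those of Slc10a7, Slc22a5 and Slc14a2 on both sides.

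Nucleotide sugar carriers bring activated sugars into the Golgi and endoplasmic reticulum for glycosylation. Slc35d2, one of them, read 0.45 and 0.29 on the WT arrays and -0.49 and -0.19 on the KO arrays (-0.71 ± 0.15, called lower with the trend) and -0.68 on its second probe. The family member Slc35f1 read -3.19 and -2.81 on the WT arrays and -3.71 and -3.49 on the KO arrays (-0.61 ± 0.18). Slc35f5, in contrast, was higher in KO, with -1.32 and -1.29 on the WT arrays and -0.78 and -0.99 on the KO arrays (0.42 ± 0.11). The groups were apart in all 3. Of the 19 members 2 were higher and 5 lower at an unadjusted p under 0.05, around a median of 0.03; the importers of CMP-sialic acid (Slc35a1, 0.08), UDP-galactose (Slc35a2, 0.06) and GDP-fucose (Slc35c1, -0.21) did not pass that threshold.

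Anion and cation carriers gave scattered values. The 15 members in the class of bicarbonate, chloride and sulfate, which counts Slc4a1ap, had a median of 0.03, with 3 higher and 1 lower at an unadjusted p under 0.05 and 2 called higher with the trend. Slc12a4, a potassium-chloride exporter used in volume control, read -2.19 and -2.06 on the WT arrays and -1.32 and -1.59 on the KO arrays (0.67 ± 0.13). Slc26a11, a sulfate and anion carrier, read -1.49 and -1.55 on the WT arrays and -0.98 and -1.01 on the KO arrays (0.53 ± 0.08), and its relative Slc26a8 read -3.27 and -3.37 on the WT arrays and -4.15 and -3.77 on the KO arrays (-0.64 ± 0.16). The first pair was called higher with the trend and had KO arrays above WT, while both KO arrays of Slc26a8 were below. Slc12a2, the importer that opposes Slc12a4 in volume control, was at -0.46 ± 0.17. Of the 13 members in the class of protons, sodium, calcium and magnesium, which counts the scaffolds Slc9a3r1 and Slc9a3r2, 1 was called lower with the trend: Slc41a3, a magnesium carrier, which read 1.19 and 1.103 on the WT arrays and 0.61 and 0.82 on the KO arrays (-0.43 ± 0.11). Its relative Slc41a1, which extrudes magnesium, read -4.48 and -4.14 on the WT arrays and -3.28 and -3.74 on the KO arrays (0.80 ± 0.22), and its second probe gave 0.18. The scaffold Slc9a3r2 read -0.02 and -0.03 on the WT arrays and 0.18 and 0.22 on the KO arrays (0.23 ± 0.08). Groups did not overlap in these 3. The endosomal sodium-proton exchanger Slc9a9 read -4.53 and -4.64 on the WT arrays and -2.53 and -4.28 on the KO arrays, so that its difference of 1.18 ± 0.64 lay mostly in KO replicate 1.

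Phosphate carriers were few. Slc20a2, a sodium-phosphate importer of most cells, read -1.81 and -1.68 on the WT arrays and -2.26 and -2.32 on the KO arrays (-0.55 ± 0.09), with -0.11 on its second probe, and its relative Slc20a1 read 3.87 and 3.48 on the WT arrays and 3.19 and 3.26 on the KO arrays (-0.45 ± 0.16). Slc34a1, the phosphate importer known from kidney, read -3.75 and -4.15 on the WT arrays and -3.83 and -4.33 on the KO arrays (-0.13 ± 0.25). The first pair had KO arrays below WT, and the arrays of Slc34a1 overlapped. None of these 3 was called with the trend.

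Vesicular carriers had a class median of -0.24 over 6 members. Slc17a9, which loads ATP into secretory vesicles, read 4.06 and 4.06 on the WT arrays and 3.77 and 3.72 on the KO arrays (-0.32 ± 0.08, and -0.50 on a second probe) and was called lower with the trend. Slc17a8, a vesicular glutamate carrier, was dim at -3.89 and -3.44 on the WT arrays and -4.25 and -4.45 on the KO arrays (-0.69 ± 0.19). Slc18a2, the vesicular monoamine carrier, read -0.70 and -0.82 on the WT arrays and -1.02 and -0.82 on the KO arrays (-0.16 ± 0.11). KO arrays were below both WT arrays in all 3, though only just in Slc18a2.

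Organic ion carriers included 1 call. Slc22a15 read 2.02 and 1.93 on the WT arrays and 1.64 and 1.63 on the KO arrays (-0.34 ± 0.08) and was called lower with the trend. The carnitine importer Slc22a5 read -2.60 and -2.71 on the WT arrays and -2.40 and -2.42 on the KO arrays (0.25 ± 0.09) and the organic anion exchanger Slc22a8 -3.04 and -3.22 on the WT arrays and -3.44 and -3.88 on the KO arrays (-0.53 ± 0.19). The groups were apart in each, with a median of -0.11 over the 12 members. The urea carrier Slc14a1 read -2.56 and -2.34 on the WT arrays and -2.09 and -2.05 on the KO arrays (0.38 ± 0.11), with separate groups. The related urea carrier Slc14a2, with overlapping groups, read -0.68 and -0.54 on the WT arrays and -0.62 and -0.90 on the KO arrays (-0.15 ± 0.14).

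A gene is represented by its brightest passing probe. Of 88 members with several passing probes 58 had the same sign in each, and 9 had probes that differed in sign and by more than 0.5 (among them Slc10a7, Slc16a10, Slc25a46, Slc2a9, Slc35a5, Slc38a1, Slc4a8 and Slc6a17), so their values depend on the probe taken.

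At the edge of detection, the members with the lowest signal on any array were Slc17a6 (-5.60), Slc38a5 (-5.42) and Slc45a3 (-5.30). Just outside were 11 genes well above background on 3 arrays, among them Slc25a43, Slc30a4 and Slc7a3, and 7 on 2 arrays; 97 had no array. Of those on 2 arrays, 3 were lit in 1 genotype alone. For them the mean of the bright genotype was divided by that of the dim one. Each dim array counted at its own signal or at the lowest signal well above background on that array, whichever was higher. The ratio is a bound only where that lowest signal was used. Slc24a3, a sodium-calcium-potassium exchanger, was at least 2.51-fold higher in KO. Slc9a7, a Golgi sodium-proton exchanger, was 1.79-fold higher in KO. That value is the ratio of its measured means and no bound, as both WT signals, though not flagged, lay above the lowest flagged signal of their array. Slc26a3, a chloride-bicarbonate exchanger, was at least 1.74-fold lower in KO. These 3 passed the filter through their bright genotype alone, so no test is given for them.

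Marker lists were read beside these results. Arrays had 59.6% to 62.9% of spots well above background and no saturated spot, and their 75th percentile signals ranged from 310 to 422. Immature granulocyte genes, among them the granule proteins Mpo, Elane, Ltf and Camp, were high on all arrays: 12 of 14 were matched, and their summed linear signal relative to the 75th percentile was 6604 and 7161 (WT) against 6887 and 6107 (KO) (Cebpe and Ly6g were not matched by name). Of these 12 genes 6 were higher and 6 lower in KO, with a median difference of 0.0064; 3 were called higher and 0 lower with the trend, namely the primary granule proteases Elane (0.50), Prtn3 (0.72) and Ctsg (0.63). All 9 monocyte markers were higher in KO, with a median difference of 0.71 and sums of 74.6 and 71.9 against 125 and 109. Macrophage markers, 4 of 8 of them higher, summed to 13.4 and 15.1 against 20.1 and 17.99. Erythroid markers were lower in KO for 4 of 5 measured (sums 45.8 and 44.5 against 33.5 and 25.8), with Rhag and Epb42 among those not above background. Eosinophil markers, 3 of 4 higher, summed to 2.71 and 2.22 against 6.07 and 4.92, with Il5ra not above background; T cell markers, 5 of 6 lower, to 1.11 and 1.06 against 0.609 and 0.468; and B cell markers, 6 of 7 lower but with Cd79b higher, to 6.27 and 6.79 against 9.22 and 7.24. Genes of dividing cells were lower in all 9 cases (sums 206 and 205 against 138 and 146), and 9 of 9 genes that respond to cell handling were higher (94.7 and 78.4 against 159 and 162). Several of these sums differed between the genotypes in the same arrays as the members, and their part in the members' differences was not tested. In RNA of a whole sorted sample, fewer cells of a type and less RNA per cell cannot be told apart.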

How the data were processed

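Total RNA of 2 WT and 2 miR-223 KO samples was labelled with Cy3 and hybridised to Agilent whole-genome arrays. The deposited intensity of a spot is the background-subtracted processed signal, per the file headers from Agilent Feature Extraction 10.5.1.1, and is not scaled between arrays. The value table, as deposited by the authors, is on a log2 scale with no stated centring: each column ran parallel to the array's own log2 processed signal over 41174 probes (Pearson's r from 0.999934 to 0.999974; medians near 4.68). Probe positions are those of the files, on mm9.

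Here log2 processed signals had the array's 75th percentile subtracted, spots of a probe were averaged, probes were kept when 2 or more of the 4 arrays flagged them well above background (25749 of 41174), and a gene took its brightest probe. Names were updated through a RefSeq table of GRCm38.p6 (26933 probes by accession, 5570 current, 894 by synonym, 7777 kept); 1 member was renamed, Slc24a6 to Slc8b1. Genotypes were compared over all 16978 genes with limma 3.58.1 in R 4.3.3 (lmFit, eBayes, Benjamini-Hochberg, adjusted p under 0.05, prior degrees of freedom 1.83), without a block, and the fit was tested on simulated data. Alternatives changed background correction, scaling, starting values, filter, probe rule, outlier spots, variance prior, block, threshold and the arrays used.

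Members, classes, partner genes and marker lists were chosen with earlier results of these data known. Values by array are given for up to 3 members with the smallest p in each class, the 12 with the smallest p in each direction among those whose KO arrays lie on one side of both WT arrays, and Slc23a2 and Slc27a4. Named beside these are members that help describe a class, the 4 partner genes with the smallest p in each group, genes at the edge of detection, and Slc genes detected in 1 genotype alone. Some genes are not reported here.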

Additional observations from a re-analysis of the deposited data

How the results depend on the processing

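Beside 0 genes and 0 members called at first, calls numbered 1873 genes and 23 members (12 higher, 11 lower) with normexp fitted without control spots, 61 genes and 1 member with the authors' deposited values, 125 and 4 when probes had to be well above background on all 4 arrays, 1627 and 25 with the intensity trend, 819 and 15 at an adjusted p under 0.1, and 4 genes and 0 members with quantile normalization. The other settings gave 0 of both. Of the 25 members called with the trend, 18 were also called with normexp fitted without control spots, and all 25 kept their direction in each setting except normexp on all spots, where 16 did. Members at an unadjusted p under 0.05 went from 54 to 3 with normexp on all spots and to between 28 (without WT replicate 1) and 39 (without miR-223 KO replicate 2) when an array was left out; without WT replicate 2 there were 30. The members' median, 0.04, was -0.087 with normexp on all spots (all genes -0.15), -0.0064 with normexp fitted without control spots (all genes -0.08) and 0.12 with the deposited values (all genes 0.06). With normexp on all spots these differences turned sign: Slc10a7 -0.054, Slc12a4 -0.24, Slc14a1 -0.46, Slc16a13 -0.73, Slc17a9 0.086, Slc20a1 0.013, Slc22a15 0.045, Slc22a5 -0.59, Slc25a28 0.030, Slc25a33 -0.20, Slc26a11 -0.051, Slc27a3 -0.52, Slc2a8 -0.57, Slc35f5 -0.031, Slc39a8 -0.088, Slc41a1 -0.79, Slc44a4 -1.01 and Slc5a6 -0.067. Slc44a4 was at -0.080 with normexp fitted without control spots and Slc10a7 at -0.14 in the mean over its probes. Slc34a1 ranged from -0.38 to 0.13 over the arrays left out, and was at 0.07 without WT replicate 1. The cause of these changes was not tested. With the replicate number as a block, 46 members passed an unadjusted p of 0.05, 0 were called and the median was 0.04; the numbers do not pair the samples by any label, and deviations of same-numbered arrays correlated at 0.0386 across genes, so no pairing was used. Having 2 arrays a genotype limits what can be called.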

Other observations

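Transporters outside the Slc names were measured as well: ABC transporters, and the Slco genes, which are solute carriers named without a number after Slc. ABC transporters use ATP to export lipids, drugs and conjugates: of 20 measured, 13 had log2 differences, KO minus WT, above 0 and the median was 0.13. With the intensity trend 1 was called higher and 1 lower, against 5.45% and 4.13% of all genes. Abcc4, an exporter of cyclic nucleotides and prostaglandins, was at 0.36 ± 0.08 (limma adjusted p = 0.031 with the trend), and Abcg1, a cholesterol exporter, at -0.71 ± 0.18 (0.0394 with the trend). Abca3 was at 0.37 and Abcc3 at -0.62, neither called. The Slco genes, organic anion carriers of which 5 were measured, had 0 calls with the trend and 1 higher and 2 lower at an unadjusted p under 0.05. On that count 11.8% of all genes were higher and 12% lower. Slco2b1 was at -1.18 ± 0.26, Slco4c1 at -0.33, Slco3a1 at 0.27 and Slco4a1 at 0.25.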
